A study of Mus musculus with 3 samples.

Results

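Toll-like receptors, their co-receptors and adaptors, the kinases they act through, the NF-kB transcription factors and the inhibitors of that pathway were followed in mouse peritoneal macrophages exposed to hexavalent chromium. The 36 genes were listed by name as parts of the pathway, with earlier results of these data known, and no measured value enters the rule. They carry 54 of the 41174 probes of the array, and 32 of them were among the 14562 genes with a probe well above background on at least 1 array.

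RNA of each group was hybridised to 1 array, so that 3 one-colour Agilent arrays of the mouse genome make up the data. All animals were male Swiss albino mice aged 8 weeks, in groups of 10, and all were given 125 µg lipopolysaccharide (LPS) into the peritoneum to recruit macrophages. On day 4 a phorbol ester, TPA, was injected at 100 ng, alone in the control group and with chromate at 35 or 70 nmol in the treated groups (potassium dichromate in the protocol, Cr(VI) in the sample labels). Cells were collected 4 days later by peritoneal lavage, and the control cells had thus met LPS and TPA as well. Whether an array holds RNA of 1 animal or of a pool was not given in the sources used here. Both chromate comparisons use the same control array, so their values are given side by side and are not independent of each other. With 1 array per group there is no replicate check and no test, and precision is limited by that number of arrays.

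Toll-like receptors are membrane receptors that recognise microbial molecules. Tlr4, with Ly96 and Cd14, recognises LPS, and Tlr2 with Tlr1 or Tlr6 recognises bacterial lipoproteins, while Tlr3, Tlr7 and Tlr9 sense nucleic acids inside the cell. Bound receptors recruit Myd88 or Ticam1, the Irak kinases and Traf6 then activate the IkB kinase, and the loss of IkB proteins lets NF-kB enter the nucleus. NF-kB in turn drives transcription of inflammatory genes and of several of its own inhibitors.

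Levels are log2 processed signals relative to the 75th percentile of the array, so that 0 is that percentile, and differences between arrays are in log2 units. Levels of different genes come from different probes and are not set against each other. A gene counted as measured when its probe was well above background and not saturated on both arrays compared. The scanner software's own error of a difference had a median of 0.205, and the standard deviation (SD) between 2 probes of a gene had a median of 0.11 at each dose against the control and 0.091 between the doses. These are technical errors only. The share of probes well above background was 49.1% in the control, 45.9% at 35 nmol and 45.1% at 70 nmol. All 3 arrays lie on 1 slide, and the group cannot be told apart from the place on that slide.

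Most of the pathway lay close to its control level at both doses. Of the 36 genes, 31 were measured on all 3 arrays, and none of them differed 2-fold from the control. At 70 nmol, 0 were 2-fold higher, against 1.64 percent of the 12523 genes measured, and 0 were 2-fold lower, against 1.09 percent. At 35 nmol the counts were 0 and 0, against 1.15 percent and 0.307 percent of 12710 genes. Between the doses they were again 0 and 0, against 0.93 percent higher and 0.728 percent lower at 70 nmol among 12370 genes. At background shares this low, a list of 31 genes would hold few such genes in any case.

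A lower threshold of 1.5-fold separated single members on the percentile scale. At 70 nmol against the control it was passed by Tlr2 alone, where 5.61 percent of all genes were higher and 3.88 percent lower by as much. That call was lost under cyclic loess normalisation, at 0.58, and under spike-in scaling, at 0.31. No member passed it at 35 nmol, where 3.01 percent of all genes were higher and 1.94 percent lower. On the spike-in scale, by contrast, 4 members passed it as lower at 70 nmol (Cd14, Map3k7, Ikbkg and Irak3) and 8 at 35 nmol (Tlr4, Ly96, Map3k7, Ikbkb, Ikbkg, Nfkb1, Irak3 and Nfkbiz), where 17.2 and 17.5 percent of all genes did. Tlr4 alone passed it between the doses, with 3.7 percent of all genes higher at 70 nmol and 2.87 percent lower. Ly96 joined it under normexp correction and spike-in scaling, where 1.59 and 4.6 percent of all genes were higher.

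The median difference of the 31 members was 0.09 at 70 nmol, against 0.04 for all genes, and -0.01 at 35 nmol, against 0.04. Between the doses it was 0.10, against 0.00. Above the all-gene median lay 20 of 31 members at 70 nmol, 12 at 35 nmol and 23 between the doses. The median size of a difference, whatever its sign, was 0.18 for the members and for all genes at 70 nmol, 0.12 against 0.14 at 35 nmol, and 0.14 against 0.15 between the doses. At 70 nmol 16 of 31 members differed by less than their scanner error, as did 7403 of all 12523 genes. At 35 nmol these were 21 members and 8947 of 12710 genes.

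Directions against the control depend on the scale. Under scaling on spike-in RNA the all-gene median shifted by -0.36 at 70 nmol, by -0.42 at 35 nmol and by 0.06 between the doses. On that scale Tlr2 and Tlr4 were the only members above 0 at 70 nmol, and 0 of 31 were above 0 at 35 nmol. The median of all genes there was itself at -0.32 and -0.38. The percentile scale gave 22 and 15 members above 0, where 7044 of 12523 and 7409 of 12710 genes were. Between the doses 24 of 31 were above 0 on the spike-in scale and 23 on the percentile scale, where 6228 of 12370 genes were. Values below are on the percentile scale, and positions above or below the median of all genes are the same on both.

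**Figure D1:**
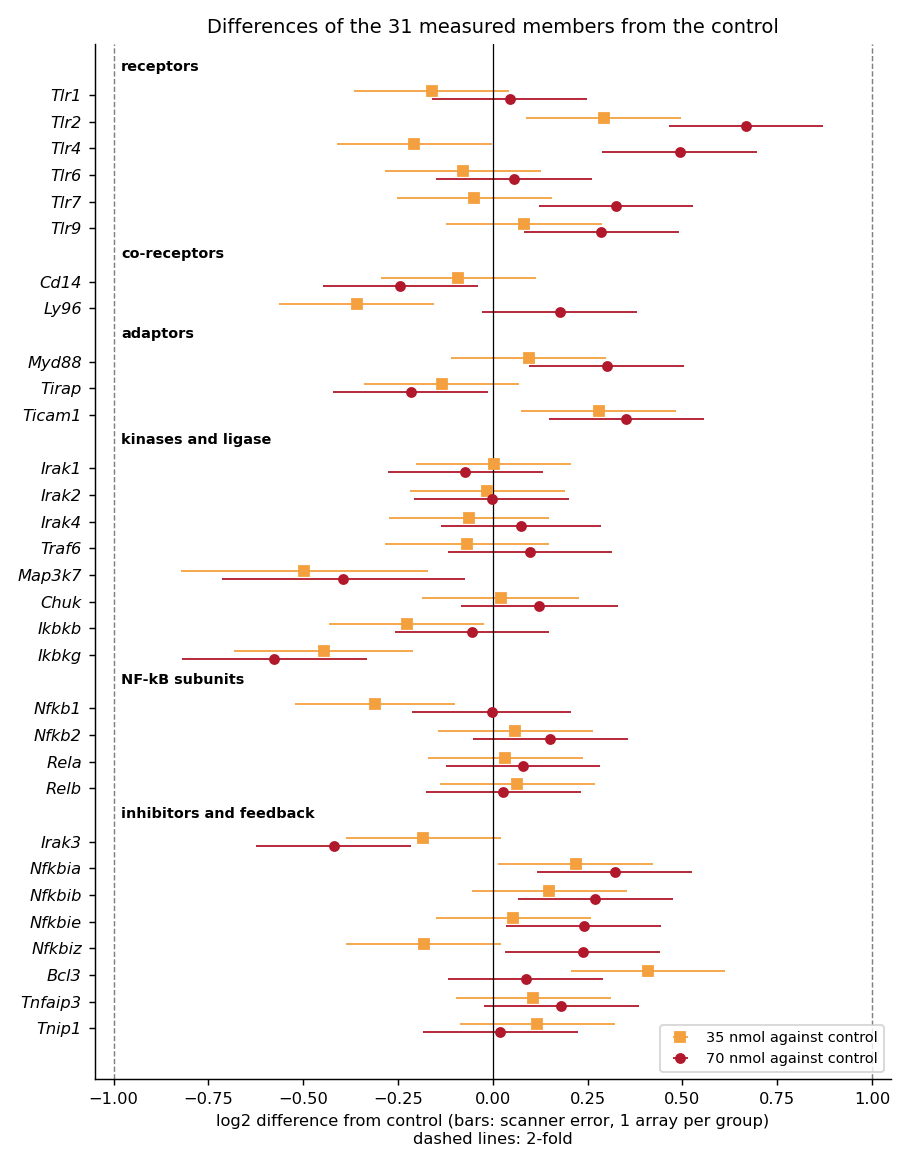
Log2 difference from the control array for each measured member at 35 nmol and at 70 nmol, ordered by role, with bars for the scanner error of the difference. Tlr2 at 70 nmol, at 0.67, is the largest difference above the control and Ikbkg at 70 nmol, at -0.58, the largest below it, which becomes -0.26 under normexp correction, where Irak3 lies further below; on the spike-in scale every point at 70 nmol would sit lower by 0.36 and every point at 35 nmol by 0.42.

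**Figure D2:**
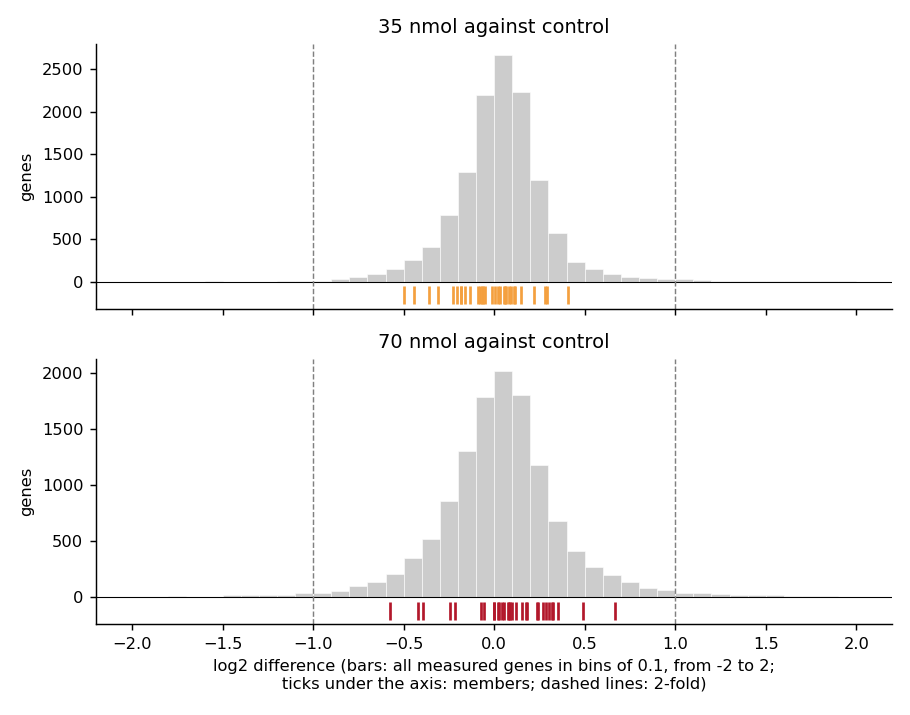
Number of genes by log2 difference from the control, at 35 nmol above and at 70 nmol beneath it, over all measured genes, with a tick for each of the 31 members and dashed lines at 2-fold. The members lie within the body of each distribution, and none reaches the 2-fold lines.

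The receptors lay above the control at 70 nmol, though on the spike-in scale only Tlr2 and Tlr4 did. Of the 9 receptors, 6 were measured, and their median difference was 0.31 at 70 nmol, -0.06 at 35 nmol and 0.29 between the doses. At 70 nmol all 6 exceeded the all-gene median, of which Tlr1 (under normexp and under the looser and stricter filters) and Tlr6 (under the looser filter) did not keep that side. At 35 nmol 2 lay above it and 4 below.

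Tlr2, the lipoprotein receptor, had a level of 3.46 in the control, 3.75 at 35 nmol and 4.13 at 70 nmol. Its level was highest at 70 nmol and lowest in the control. The difference from the control was 0.67 at 70 nmol, or 1.59-fold, with a scanner error of 0.20, and 0.29 at 35 nmol, or 1.22-fold, which was below the control on the spike-in scale. Of all genes, 4.34 percent were higher than Tlr2 at 70 nmol by this measure. Its probe, at chr3:83922349-83922408 in build mm8, is spotted 10 times on the array. The used spots ran from 3.44 to 3.50 in the control, from 3.71 to 3.80 at 35 nmol and from 4.11 to 4.18 at 70 nmol. No spot of one array overlapped those of another, which describes the spread within arrays and not that between animals. The median SD between repeated spots was 0.0435 in the control, 0.0433 at 35 nmol and 0.034 at 70 nmol. Small differences can therefore part such spots too, and the share of all repeated probes without overlap was not counted.

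Tlr4, the LPS receptor, lay on opposite sides of the control at the 2 doses. Its level was 0.93 in the control, 0.73 at 35 nmol and 1.43 at 70 nmol. It was therefore 0.49 above the control at 70 nmol (1.41-fold) and -0.21 from it at 35 nmol (1.15-fold lower), each with a scanner error of 0.20 to 0.21. The doses differed by 0.70, or 1.62-fold, and 2.42 percent of all genes were higher than Tlr4 in that comparison. Its 10 repeated spots, at chr4:66329051-66329109 in mm8, ran from 0.88 to 0.98 in the control, from 0.70 to 0.82 at 35 nmol and from 1.39 to 1.46 at 70 nmol. These ranges did not overlap either.

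Tlr7, a sensor of single-stranded RNA, had levels of 2.44 in the control, 2.39 at 35 nmol and 2.77 at 70 nmol. The 70 nmol array stood apart on the percentile scale, and on the spike-in scale the 35 nmol array did, at -0.47 from the control against -0.04 at 70 nmol. Tlr9, a sensor of unmethylated DNA, had levels of 0.80, 0.88 and 1.08 in the same order, 0.29 above the control at 70 nmol and 0.08 at 35 nmol. Tlr9 too was below the control at both doses on the spike-in scale.

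The partners of Tlr2 did not follow its size. Tlr1 had levels of 1.71, 1.55 and 1.75 in the control, at 35 and at 70 nmol, and Tlr6 had 0.92, 0.84 and 0.97. Each differed from the control by less than the scanner error at both doses. Tlr3, the sensor of double-stranded RNA, was well above background at 70 nmol only, at -3.05, and was at least 1.52-fold higher there than in the control and at least 1.28-fold higher than at 35 nmol. Its probe was among the dimmest counted, and the bound sets its signal against the lowest signal well above background on the dimmer array. The bound leaves out scanner error, which for this probe was 0.34 in the control, 0.33 at 35 nmol and 0.29 at 70 nmol. On the spike-in scale the bound against the control would be smaller. The other probe of Tlr3 was not well above background on any array. The probes of Tlr5, the flagellin receptor, and of Tlr8 were not well above background on any array.

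**Figure D3:**
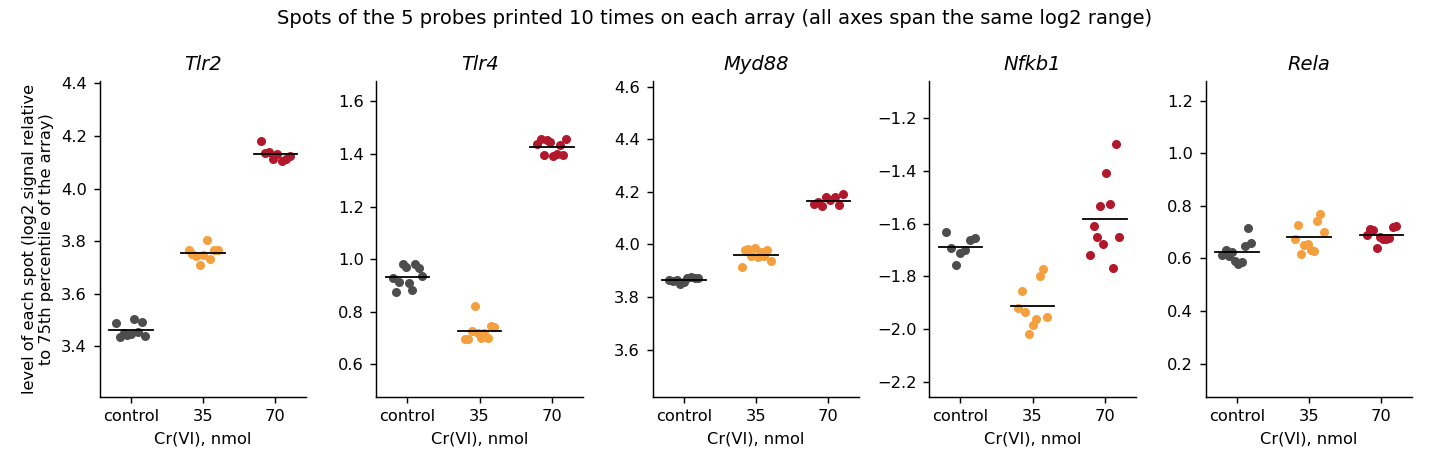
Level of every used repeated spot of Tlr2, Tlr4, Myd88, Nfkb1 and Rela on the 3 arrays, in log2 units relative to the array's 75th percentile. The spots of Tlr2, Tlr4 and Myd88 form 3 groups that do not overlap, and those of Rela overlap between all arrays on this scale. On the spike-in scale the Rela spots at both doses would lie below the control spots. Repeated spots lie so close within an array (median SD 0.034 at 70 nmol to 0.0435 in the control) that small differences can part them.

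Neither co-receptor of Tlr4 lay as far above the control as Tlr4 did at 70 nmol. Ly96, which binds LPS together with Tlr4, had levels of 2.38 in the control, 2.02 at 35 nmol and 2.56 at 70 nmol. It was -0.36 from the control at 35 nmol and 0.18 above it at 70 nmol, and the doses differed by 0.53. The array at 35 nmol was thus the lowest for Ly96 as for Tlr4. Cd14, which hands LPS to that complex, had levels of 6.50, 6.41 and 6.25, and its difference was -0.24 at 70 nmol and -0.09 at 35 nmol.

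Among the adaptors, Myd88 and Ticam1 lay above the control and Tirap below it. Myd88, used by most Toll-like receptors, had levels of 3.87 in the control, 3.96 at 35 nmol and 4.17 at 70 nmol. Its repeated spots ran from 3.85 to 3.88, from 3.91 to 3.99 and from 4.15 to 4.19, with no overlap. The differences were 0.30 at 70 nmol and 0.09 at 35 nmol, the latter under its scanner error of 0.20.

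Ticam1, the adaptor of Tlr3 and of the internalised Tlr4, had levels of 1.25, 1.53 and 1.60. It was higher by 0.35 and 0.37 on its 2 probes at 70 nmol and by 0.28 and 0.18 at 35 nmol. Tirap, which bridges Myd88 to Tlr2 and Tlr4, was -0.22 and -0.17 from the control on its 2 probes at 70 nmol and -0.14 and -0.08 at 35 nmol. Myd88 and Ticam1 were below the control on the spike-in scale at both doses. Ticam2 was not well above background on any array.

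The kinases, the ligase Traf6 and the IkB kinase subunits had a median difference of -0.03 at 70 nmol, -0.07 at 35 nmol and 0.10 between the doses, over all 8. At 35 nmol all 8 were under the all-gene median, and Chuk crossed it under quantile and cyclic loess normalisation. At 70 nmol 5 lay below it and 3 above. The proximal kinases were nearly level, with differences of -0.07 for Irak1, -0.00 for Irak2 and 0.07 for Irak4 at 70 nmol and of 0.00, -0.01 and -0.06 at 35 nmol. Traf6, the ubiquitin ligase that links them to Map3k7, differed by 0.10 and -0.07.

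Ikbkg, the regulatory subunit of the IkB kinase, had levels of -1.39 in the control, -1.83 at 35 nmol and -1.97 at 70 nmol. Both treated arrays were below the control, by -0.58 at 70 nmol and by -0.45 at 35 nmol, with a scanner error of 0.24 at 70 nmol. Its second probe gave -0.11 and -0.27, so the size was not shared between probes. With normexp correction the differences became -0.26 and -0.17. The catalytic subunits differed less. Chuk was at 0.12 and 0.02 at 70 and 35 nmol, and Ikbkb at -0.05 and -0.23.

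Map3k7, the kinase that activates the IkB kinase, had levels of -2.41, -2.91 and -2.81. It was -0.39 from the control at 70 nmol and -0.50 at 35 nmol, with a scanner error of 0.32 at 70 nmol. With normexp background correction these became -0.06 and -0.07, which is a limit of signals this dim.

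The NF-kB subunits were level with all genes. Over the 4 that were measured, the median difference was 0.05 at both doses and 0.07 between them. Rela, the main activating subunit, had levels of 4.31, 4.35 and 4.39. The spots of its other probe overlapped between all arrays on the percentile scale. On the spike-in scale Rela was -0.28 from the control at 70 nmol and -0.39 at 35 nmol, and the spots at both doses would lie below the control spots. Nfkb2 had 2.69, 2.75 and 2.84, and Relb, its partner in the non-canonical pathway, had 3.30, 3.37 and 3.33. Rel was not well above background on any array.

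Nfkb1 was the exception at the lower dose. Its level was -0.31 in the control, -0.62 at 35 nmol and -0.31 at 70 nmol, so that 35 nmol was the lowest. Over its 3 probes the difference ran from -0.31 to -0.22 at 35 nmol, from -0.00 to 0.10 at 70 nmol and from 0.31 to 0.35 between the doses. Repeated spots of another of its probes ran from -1.76 to -1.63 in the control, from -2.02 to -1.77 at 35 nmol and from -1.77 to -1.30 at 70 nmol. The control spots overlapped those at 70 nmol and not those at 35 nmol.

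**Figure D4:**
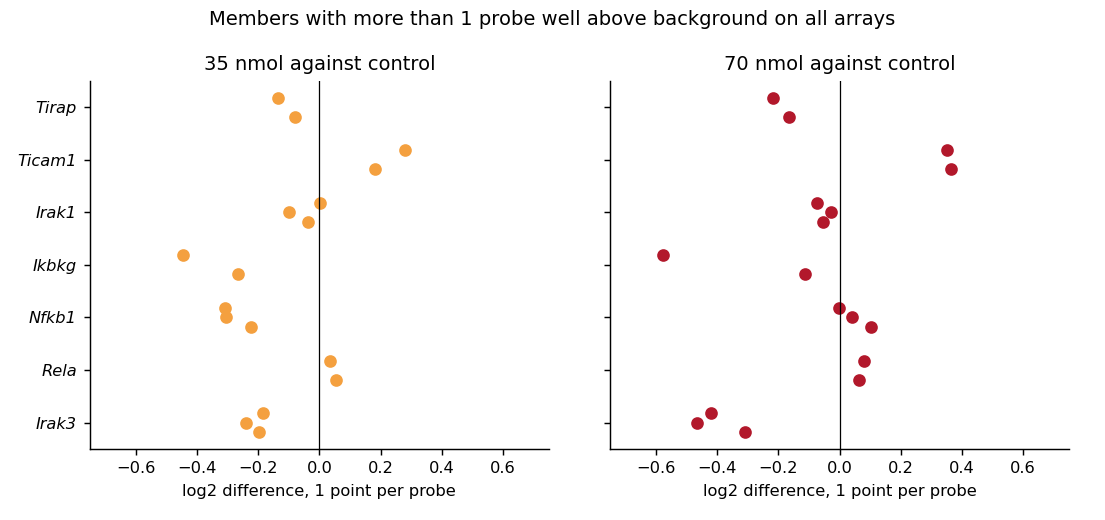
Log2 difference of each measured probe for the members with more than 1 measured probe, at 35 nmol and at 70 nmol against the control, 1 point a probe. Irak3 and Tirap lie below 0 and Ticam1 above 0 on every probe at both doses, and the 2 probes of Ikbkg differ in size; on the spike-in scale the Ticam1 points would lie near 0 at 70 nmol and below 0 at 35 nmol.

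The inhibitors and feedback genes had a median difference of 0.21 at 70 nmol, 0.11 at 35 nmol and 0.09 between the doses. At each dose 6 of the 8 exceeded the all-gene median. Bcl3 at 70 nmol and Nfkbie at 35 nmol each crossed it under 4 alternatives, normexp and cyclic loess among them, and Tnfaip3 and Tnip1 at 35 nmol under the looser filter. Nfkbia, the best known IkB protein and a rapid NF-kB target, had levels of 6.62 in the control, 6.84 at 35 nmol and 6.95 at 70 nmol, differences of 0.22 and 0.32. Over the alternatives other than spike-in scaling, these ran as low as 0.05 and 0.15. The related IkB proteins Nfkbib and Nfkbie, differed by 0.27 and 0.24 at 70 nmol and by 0.15 and 0.05 at 35 nmol. Each of these 3 was highest at 70 nmol and lowest in the control on the percentile scale.

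Tnfaip3, a ubiquitin-editing brake on the pathway, had levels of 2.12, 2.22 and 2.30. Its binding partner Tnip1 had 4.08, 4.20 and 4.10. Both stayed within their scanner error of the control at each dose. Nfkbiz, a nuclear IkB protein that helps some NF-kB targets, had levels of 0.86 in the control and 0.68 at 35 nmol, a difference of -0.18. At 70 nmol it was 0.24 above the control, below it on the spike-in scale, and the doses differed by 0.42.

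Bcl3, another nuclear IkB protein, was the member furthest above the control at 35 nmol. Its level was 4.64 in the control, 5.05 at 35 nmol and 4.73 at 70 nmol, a difference of 0.41 at 35 nmol and of 0.09 at 70 nmol, both below the control on the spike-in scale. Of all genes, 5.63 percent were higher than Bcl3 at 35 nmol. On the percentile scale the 35 nmol array was the highest for Bcl3 and the lowest for Tlr4, Ly96 and Nfkb1.

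Irak3, which lacks kinase activity and restrains Irak signalling, was the only one of the 8 below the control at 70 nmol on the percentile scale, and at 35 nmol Nfkbiz was as far below. Its level was 2.13 in the control, 1.95 at 35 nmol and 1.71 at 70 nmol. On its 3 probes the difference ran from -0.47 to -0.31 at 70 nmol and from -0.24 to -0.18 at 35 nmol. It was below the control at both doses under every alternative run.

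Across roles, 19 of the 31 members (61.3%) were highest at 70 nmol, 4 at 35 nmol and 8 in the control on the percentile scale, where 39.9% of all genes were highest at 70 nmol. On the spike-in scale 2 members were highest at 70 nmol and 29 in the control (93.5%, against 85.9% of all genes). Without replicates, an order of 3 arrays does not show a dose response.

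Promoter windows from RefSeq (build GRCm38.p6, 250 bases before to 50 after the start) were searched on both strands for a core of the NF-kB motif, GGGA followed by any 4 bases and then CC. Windows were found for 27 of the 36 genes, and 16 of the 27 held the motif (59.3%), against 4471 of 17492 protein-coding genes (25.6%). By role it was in 3 of 7 receptors, 1 of 3 adaptors, 4 of 7 kinases, 3 of 3 subunits and 5 of 7 inhibitors. The 9 genes without a window, and so not searched, were Tlr4, Tlr7, Cd14, Ly96, Ticam2, Ikbkb, Nfkb1, Relb and Nfkbiz. A gene can have more than 1 window, which gives it more places for a match, and the members had 38 windows and coding genes 21263. The members' windows had a median GC content of 58.5%, against 56.3% for coding genes, and the part of this in the difference was not tested. A match describes letters and not a bound site. The stretches before the start are given for the receptor that differed most, for 4 inhibitors and for 1 subunit, with the match in capitals. A match on the opposite strand reads GG, any 4 bases, TCCC.
Tlr2 chr3:83841756-83841795 (minus strand): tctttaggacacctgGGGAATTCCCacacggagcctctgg
Tnip1 chr11:54962973-54963012 (minus strand): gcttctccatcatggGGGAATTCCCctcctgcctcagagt
Nfkb2 chr19:46304683-46304736 (plus strand): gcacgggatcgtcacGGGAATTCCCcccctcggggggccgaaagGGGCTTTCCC
Irak3 chr10:120201598-120201637 (minus strand): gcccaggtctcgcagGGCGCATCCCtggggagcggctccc
Tnfaip3 chr10:19015511-19015550 (minus strand): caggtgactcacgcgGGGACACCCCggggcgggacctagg
Nfkbia chr12:55492652-55492874 (minus strand): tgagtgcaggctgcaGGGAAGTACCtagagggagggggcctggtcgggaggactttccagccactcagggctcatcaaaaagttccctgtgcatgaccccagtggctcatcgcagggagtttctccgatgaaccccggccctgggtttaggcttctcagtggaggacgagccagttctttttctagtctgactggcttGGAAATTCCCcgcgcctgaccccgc

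The match in Tlr2 begins 172 bases before the start, in Tnip1 57, in Irak3 25 and in Tnfaip3 125. Nfkb2 has matches at 39 and 10 bases and Nfkbia at 212 and 29. These are the matches in 1 window of each gene. Nfkb2 has others in its further windows, at 236 bases and at 225 and 110, and Tnfaip3 has 1 at 89 bases in another window. Tlr2, Tnip1 and Nfkb2 share the palindrome GGGAATTCCC, chosen after these sequences were seen as the match found in the largest number of members. It is in 3 of 38 member windows (7.89%) and in 10 of 21263 windows of coding genes (0.047%). Because the palindrome was picked for recurring in members, a higher share there follows from the choice and does not show enrichment. Of these genes with the same letters, Tlr2 differed by 0.67 at 70 nmol, Nfkb2 by 0.15 and Tnip1 by 0.02.

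Other genes of the pathway also lay close to the control. Of a list of 52 further regulators, 45 were measured at 70 nmol, with a median difference of 0.06 there, 0.02 at 35 nmol and 0.03 between the doses. None was 2-fold higher or lower in any comparison on the percentile scale. Between the doses Map3k8, a kinase upstream of ERK, was 0.94 higher at 70 nmol, with levels of -2.44 in the control, -2.84 at 35 nmol and -1.90 at 70 nmol. Irf7, a transcription factor of the interferon response, was 0.72 higher, with levels of 4.43, 4.23 and 4.94. On the spike-in scale the Map3k8 value between the doses was 1.0015, just past 2-fold. With normexp correction the Map3k8 value between the doses became 0.37, below that of Irf7 at 0.69, and its 35 nmol difference turned from -0.40 to 0.04. Ly86 and Cd180, which form a receptor complex related to Tlr4 and Ly96, were -0.39 and -0.37 from the control at 70 nmol and -0.22 and -0.30 at 35 nmol.

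Genes that NF-kB is known to drive had a median size of difference of 0.32 at 70 nmol, against 0.18 for the pathway members. The list of 38 targets was chosen with earlier results of these data known, so neither its direction nor its size of difference is independent evidence. At 70 nmol 28 were measured, with a median difference of 0.23, and 3 were 2-fold higher and 0 lower, against 1.64 and 1.09 percent of all genes. At 35 nmol 27 were measured, with a median of 0.14, and 1, Vcam1, was 2-fold higher and 0 lower, against 1.15 and 0.307 percent. On the spike-in scale Vcam1 was 0.58 at 35 nmol, short of 2-fold. Relative to the all-gene median, 19 targets were above and 9 below at 70 nmol, and 19 and 8 at 35 nmol.

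Ccl2, a chemokine that attracts monocytes, had levels of -1.14 in the control, -0.28 at 35 nmol and 0.62 at 70 nmol, 3.39-fold higher at 70 nmol and 1.81-fold at 35 nmol. Ccl4, an inflammatory chemokine, was 2.86-fold and 1.64-fold higher. Vcam1, an adhesion molecule for leukocytes, was 3.29-fold and 2.01-fold higher, and its log2 difference of 1.72 at 70 nmol became 0.77 with normexp correction and that of 1.01 at 35 nmol became 0.49. Each of the 3 was highest at 70 nmol and lowest in the control. Tnf, the cytokine, was 0.90 higher at 70 nmol and 0.34 at 35 nmol. Bcl2l1, an inhibitor of cell death, was 0.84 higher and 0.07, and Gadd45b, a stress gene, 0.78 and 0.40. On the spike-in scale all 3 of these were below the control at 35 nmol. Il6, a cytokine, was -0.59 from the control at 70 nmol and -0.00 at 35 nmol, and Cxcl1, a chemokine for neutrophils, -0.03 and -0.65.

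**Figure D5:**
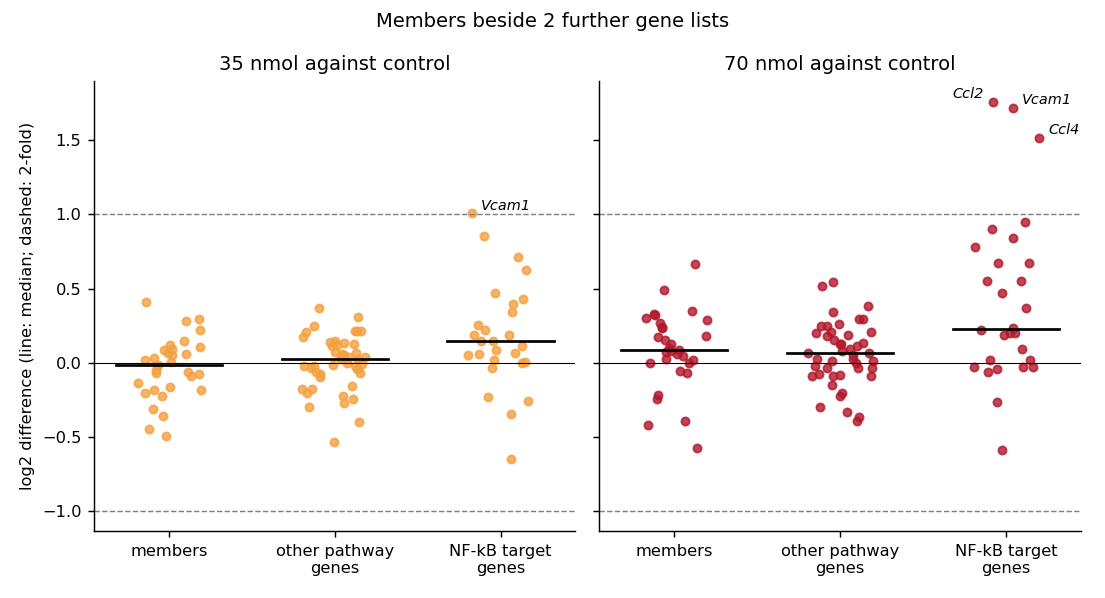
Log2 difference from the control at 70 nmol and at 35 nmol for the members, the other pathway genes and the NF-kB target genes, with the median of each list. Ccl2, Ccl4 and Vcam1 of the target list lie beyond 2-fold at 70 nmol, and no member does; on the spike-in scale points at 70 nmol would sit lower by 0.36 and those at 35 nmol by 0.42.

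Marker genes of several cell types differed between the arrays as well. Each sum below is over the markers well above background on that array, so the set of markers can differ between arrays. All 8 macrophage markers were well above background on every array (Lyz2 was saturated). The summed signal of the other 7, in units of the array's 75th percentile, was 375 in the control, 384 at 35 nmol and 337 at 70 nmol, with a median difference of 0.14 at 70 nmol and -0.00 at 35 nmol. Of 8 markers of large resident peritoneal macrophages Icam2 was saturated, and the other 7 summed to 309, 268 and 174, with a median difference of -1.08 at 70 nmol and -0.28 at 35 nmol. Of 6 markers of monocytes and small peritoneal macrophages, 4 were measured, with a median difference of 0.59 at 70 nmol and 0.08 at 35 nmol. Their sums were 309, 322 and 315, over 4, 4 and 5 markers. Ly6c2, a defining marker of classical monocytes, was not well above background on any array.

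The 8 B cell markers summed to 262, 253 and 205, with medians of -0.34 and -0.24 at 70 and 35 nmol. B cells carry Tlr9, Tlr7 and Cd180 as well. Fibroblast markers, 4 of 5 above background in the control and at 35 nmol and all 5 at 70 nmol, summed to 9.52, 10.8 and 32.5, with a median of 1.73 at 70 nmol and 0.06 at 35 nmol. Fibroblasts can express Ccl2 and Vcam1. Neutrophil markers, with Ly6g and Camp not well above background, summed to 10.4, 6.21 and 14.4. Their medians were -0.09 at 70 nmol, with 3 markers above 0 and 3 below, and -0.78 at 35 nmol. T and NK cell markers (7, 7 and 6 above background) summed to 14.9, 15.1 and 16.2, and of 5 dendritic cell markers 1 was above background. Mast cell markers summed to 24.1, 13.3 and 7.40, and hepatocyte markers (5, 5 and 1 above background) to 19.8, 58.4 and 0.134. Erythroid markers summed to 67.0, 11.6 and 35.3, with medians of -1.07 at 70 nmol and -2.47 at 35 nmol, where 4 of 4 were 2-fold lower. Mesothelial markers (2, 2 and 3 above background) summed to 0.456, 0.497 and 0.913, with medians of 0.83 and 0.09. Of 4 eosinophil markers 2 were above background, with sums of 1.65, 2.36 and 1.82. The part of these cell types in the differences of the receptors, the inhibitors and the targets was not tested. In RNA of a mixed lavage, a different share of a cell type and a different amount of RNA per cell cannot be told apart.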

How the data were processed

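Spot intensity was read by the authors with Agilent Feature Extraction, version 10.5.1.1 per the file headers, which subtracted background and places probes in mouse build mm8. Its own flag, set at a multiple of 13, decided which spots were well above background. The value table that the authors deposited is on the log2 scale, and each column differs from the log2 processed signal by a constant of 8.00 (control), 7.61 (35 nmol) or 7.67 (70 nmol). Its column medians were -3.60, -3.74 and -3.78, and genes were not centred.

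Here the log2 processed signal was centred on the 75th percentile of each array over 43379 spots that are not controls. Outlier spots were left out and repeated spots averaged, giving 41174 probes, of which 24375 were named through their accession in the RefSeq table (GRCm38.p6). Each gene was represented by the brightest of its probes with a spot flagged well above background on 1 or more arrays. A count of genes is of those differing at least 2-fold, or 1.5-fold where said, on probes well above background on both arrays and not saturated. Bounds on a fold use the lowest signal well above background on the dimmer array and do not include scanner error. No test was possible with 1 array per group.

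All 36 members are named. Of the other pathway genes and of the targets, the rule took up to 8 each with the largest difference at either dose, and genes at least 2-fold in any comparison. Not every gene it takes is described, and Il6 and Cxcl1 were added after their values were seen. The members and lists were chosen with earlier results of these data known. Results were recomputed with normexp correction of the background (offset 50), cyclic loess or quantile normalisation, scaling on the detected probes' median, spike-in scaling (4 of 10 probes, between 8 and 14 on the log2 scale), looser and stricter filters on dim probes, the mean over probes, the deposited table, and thresholds of 1.5-fold and 3-fold. The steps were tested on simulated data. Software was limma 3.58.1 in R 4.3.3, and pandas 2.3.3, numpy 2.4.6 and matplotlib 3.10.9 in Python 3.11.15.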

Additional observations from a re-analysis of the deposited data

Results flagged for a closer look

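Tlr4 lay on opposite sides of the control array at the 2 doses, 0.49 above it at 70 nmol and -0.21 from it at 35 nmol, which puts the doses 0.70 apart. At 35 nmol the difference of -0.207 barely exceeded its scanner error of 0.205, and at its smallest over the alternatives it was -0.19. On the spike-in scale the difference was 0.13 at 70 nmol, under the scanner error of 0.20, and -0.63 at 35 nmol. The difference between the doses was not tested, since there is 1 array per group.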

How the results depend on the processing

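No member difference against the control or between the doses was called, and none of the counts of members at 2-fold moved under the other normalisations or the mean over probes. The counts also stayed at 0 under the stricter filter, a 3-fold threshold and the deposited table, which could not have changed them. That filter and that threshold can only remove genes, and the deposited columns differ from the processed signal by a constant per array. At 1.5-fold, 1 member (Tlr2) was higher at 70 nmol against the control, and 1 (Tlr4) at 70 against 35 nmol. Of all genes 5.61 and 3.7 percent were higher in these comparisons. Settings combined with the 1.5-fold threshold were chosen after seeing the data. Tlr2 then missed it under cyclic loess (0 members) and spike-in scaling (0 members). With spike-in scaling 4 members were lower at 70 nmol and 8 at 35 nmol, against 17.2 and 17.5 percent of all genes. The looser filter gave 2 higher and 1 lower of 36 members at 70 nmol, against 8.81 and 11.6 percent of all genes. At 35 nmol it gave 2 lower, against 10.3 percent. Between the doses normexp and spike-in scaling each gave 2 higher, against 1.59 and 4.6 percent of all genes. With the looser filter, which admits probes not well above background, 1 member (Tlr8) was 2-fold lower at 70 nmol and 1 (Tlr8) at 35 nmol. The members' median relative to all genes ran over 9 alternatives from -0.05 to 0.09 at 70 nmol, below 0 with the looser filter, from -0.13 to -0.03 at 35 nmol and from 0.07 to 0.13 between the doses. Of 822 member values under an alternative, 87 moved by more than the median SD between 2 probes, 62 of them under spike-in scaling and 12 under normexp. None moved under the looser or stricter filter, the deposited table or scaling on the detected probes' median. The filters and the deposited table leave these values almost unchanged, and that scaling shifts all genes alike by a small constant. Their values add to the 822 without being able to move. No paired analysis was possible because each group has 1 array. Signal near background limits Tlr3, Map3k7 and Ikbkg, and Tlr5, Tlr8, Rel and Ticam2 were not well above it on any array.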

Other observations

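A few genes of the pathway and target lists were well above background on some arrays only, and were picked out after their values were seen. Peli3, a ubiquitin ligase of the Pellino family that acts on Irak kinases, was well above background in the control only, at least 1.83-fold higher there than at 70 nmol and at least 2.02-fold higher than at 35 nmol. Il1a, a cytokine, was likewise seen in the control only, at least 1.20-fold and 1.33-fold higher. Il10, an anti-inflammatory cytokine, was seen at 70 nmol only, at least 1.33-fold higher than in the control on the percentile scale. This bound would be much smaller on the spike-in scale, where differences from the control at 70 nmol sit lower by 0.36. Bounds with the control as the higher array would be larger there. Cxcl2, a chemokine that attracts neutrophils, was missing from the probes well above background at 35 nmol only, and its control signal was higher by at least 1.34-fold.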
